A study of Mus musculus with 9 samples.

Results

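The comparison described here set 3 libraries of reserve cells labelled SRCs of cycle 3 (SRC3) against 3 libraries of the parental cells (PAR), 6 of the 9 libraries of the study. All groups were cultured skeletal muscle myoblasts of the inbred mouse strain FVB/N, with no allele, transgene or agent named. The reserve populations had been passaged 2 times in proliferation conditions after isolation, and the labels do not say how many passages the parental cells had. The other 3 libraries were reserve cells labelled FRCs of cycle 1 (FRC1), and they are used below to show where SRC3 also differed from another reserve population. The labels do not spell out FRC or SRC, and do not say whether the libraries of a group came from separate cultures, so the p-values below measure the spread between these libraries, which may be technical. Gene expression was measured by sequencing polyadenylated RNA and is given as CPM, the counts of a gene scaled to the same total of gene counts in every library. Values written with ± are group means with the SD over 3 libraries.

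Myoblasts are the dividing precursors of muscle fibres. When growth factors are withdrawn, most leave the cell cycle, express myogenin and contractile proteins and fuse into multinucleated myotubes, while a minority stays undifferentiated and mononucleated. These reserve cells can be returned to growth, and they have been used as a culture model of the quiescent satellite cells that repair muscle.

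The libraries held 13012996 to 14336279 gene counts, so that 3 reads in a library came to 0.209 to 0.231 CPM. Of 47729 listed genes, 12540 had enough reads to be tested. The first principal component of the 6 libraries took up 79.6% of their variance and separated the groups, with PAR from -35.51 to -34.73 and SRC3 from 34.75 to 35.51. Along the second component, of 7.5%, the SRC3 libraries spread from -17 in replicate 3 to 19.5 in replicate 2, and the PAR libraries from -3.242 to 2.766. Of 11 listed myoblast markers 9 were tested, with 7 lower and 1 higher in SRC3. Myod1, the transcription factor that specifies the myogenic lineage, was measured at 776 ± 15.1 and 539.6 ± 18.8 CPM in PAR and SRC3. Des, which encodes the muscle intermediate filament desmin, was at 731 ± 17.1 and 472 ± 18.7 CPM. The untested Myf5 had 0 reads in PAR and 1 in SRC3, and Msc 2 and 3.

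A large part of the measured transcriptome differed between SRC3 and PAR, mostly by small amounts. By edgeR's quasi-likelihood test at a Benjamini-Hochberg adjusted p under 0.05, 4758 genes changed, or 37.9% of those tested. Of these 2231 (17.8% of tested genes) were higher and 2527 (20.2%) lower in SRC3. The median size of a change among them was 1.31-fold. Changes of at least 2-fold were found for 367 higher genes (2.93%) and 474 lower genes (3.78%), and changes of at least 8-fold for 40 and 104. The CPM of the SRC3 and PAR libraries did not overlap for 6163 genes (49.1%). SRC3 also differed from FRC1 in the same direction for 2463 of the 4758 genes (51.8%) and for 661 of the 841 genes with a change of at least 2-fold (78.6%). The same SRC3 libraries enter both comparisons, so genes chosen for a large change from PAR lean to the same direction against FRC1. Against FRC1 as a whole, 4199 genes differed (33.5%), with 1940 (15.5%) higher and 2259 (18%) lower in SRC3.

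**Figure D1:**
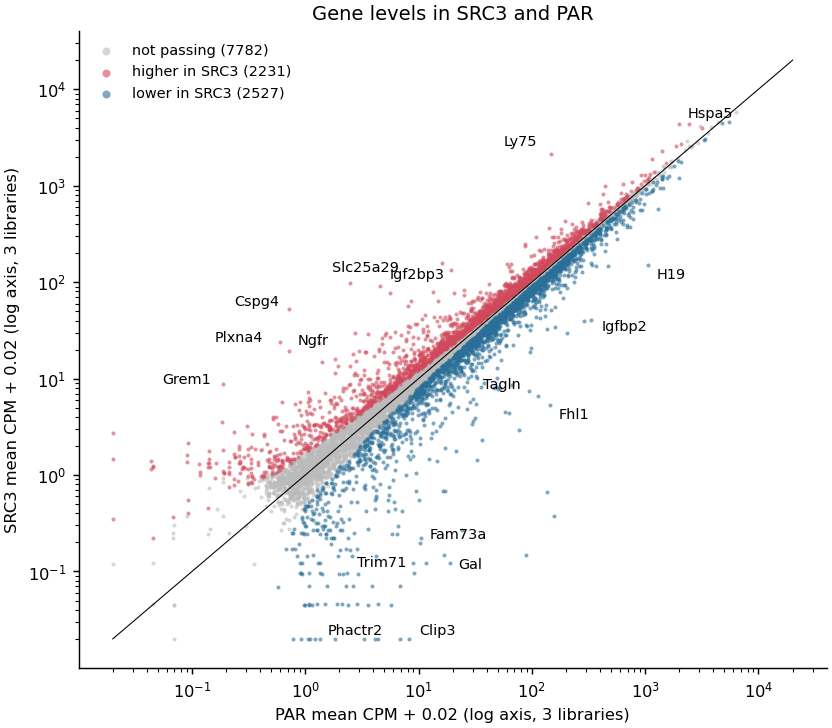
Mean level of each of the 12540 tested genes in PAR (horizontal axis) and in SRC3 (vertical axis), in CPM plus 0.02 on log axes, with genes that changed coloured by direction. Most of the 4758 changed genes lie close to the diagonal, while a small group that was expressed in PAR lies along the bottom, at under 0.5 CPM in SRC3.

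The loss of expression in SRC3 reached, for some genes, the floor of detection. At least 5 CPM in PAR and under 0.5 CPM in SRC3 was measured for 21 genes, 20 of them with a usable gene name, on 12 chromosomes, while Grem1 was the single gene that met the same limits in the opposite direction. Cdkn2a and Cdkn2b, which encode inhibitors of G1 cyclin-dependent kinases, were among the 21, and Myh10, a non-muscle myosin heavy chain, lay above the limit. Because the limits were set on these levels, the levels are a description. The members nearest the limit were Satb1 at 0.407, BC067074 at 0.427 and Ctla2a at 0.50 CPM in SRC3, and the nearest genes outside it were Col26a1 at 0.526, Hoxb9 at 0.532 and Qrfp at 0.608 CPM.

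For 2 of the 21 genes not a single read was counted in SRC3. Clip3, which encodes a CAP-Gly domain protein of Golgi and endosomal membranes, had 126, 94 and 119 reads in the PAR libraries, 104, 113 and 122 in FRC1 and 0, 0 and 0 in SRC3, so that its level in SRC3 was at least 108-fold lower than in PAR. Phactr2, a regulator of protein phosphatase 1 and actin, had 111, 85 and 88 reads in PAR, 87, 71 and 95 in FRC1 and 0 in each SRC3 library, at least 90.9-fold lower. These bounds set 3 reads over the SRC3 group. Leaving out 1 SRC3 library, and keeping 3 reads over the 2 that remain, gave bounds of at least 71.3- to 73.1-fold for Clip3 and of 59.7- to 61.2-fold for Phactr2. In FRC1 both genes were expressed in all 3 libraries, and no FRC1 library overlapped with SRC3.

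Other genes of this group encode secreted, membrane and RNA-binding proteins. Gal, the precursor of the neuropeptide galanin, was measured at 19.2, 18.4 and 18.6 CPM in PAR and 0.0733, 0.154 and 0.076 CPM in SRC3. All SRC3 libraries lay far under the lowest PAR library, and the FRC1 libraries, at 14.9, 7.98 and 10.3 CPM, lay between them. Trim71, a ubiquitin ligase and RNA-binding protein of early development, was at 11.1, 11.6 and 12.2 CPM in PAR and 0, 0.154 and 0.152 CPM in SRC3, and at 9.7, 10.6 and 10.3 CPM in FRC1. Peg12, a gene expressed from the paternal chromosome, was at 27.2, 23.7 and 20.9 CPM in PAR and 0.367, 0.231 and 0.152 CPM in SRC3, and at 27.1, 26.6 and 25.1 CPM in FRC1. For both genes FRC1 was near PAR and SRC3 was near 0.

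A few reads remained for the transporters and surface proteins of the group, so that the size of their fall is loosely set. Slc7a8, a transporter of neutral amino acids, had 380 reads in PAR and 3 in SRC3, a ratio of 122 (95% interval 41.3 to 592, counting error only). Slc43a3, of another carrier family, had 285 and 2 reads (ratio 137, 37.5 to 1140), and Brinp3 236 and 1 (ratio 227, 40.3 to 8990). Single SRC3 libraries decided these ratios in part: without SRC3 replicate 3 no read of Slc43a3 or Brinp3 was left, which made them at least 61- and 50.5-fold lower, and without SRC3 replicate 2 the Slc7a8 ratio was 246 (43.9 to 9740). In the same way the fitted fall of Fam73a, a mitochondrial outer membrane protein, was 124-fold and without SRC3 replicate 2 was 357-fold. Without that library the fall was 83.8-fold in place of 55-fold for Gpc4, a heparan sulfate proteoglycan, 30.4 in place of 17.3 for Cd55, an inhibitor of complement activation, and 22.7 in place of 12.9 for Satb1, a chromatin organiser. Without SRC3 replicate 3 it was 189-fold in place of 80.4-fold for Shroom2, an actin-binding protein, and 85.5 in place of 49.6 for Plxdc2. The calls held in each of these fits.

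All 21 genes were lower in SRC3 than in FRC1 as well (edgeR, 18% of tested genes). They were chosen for low levels in these same SRC3 libraries, so this describes the set and adds no separate support. Their lowest mean level in FRC1 was 2.12 CPM. Against PAR, FRC1 was lower for 10 of the 21 genes (14.7% of tested genes) and higher for 4 (13.6%). The 4 were Htatip2, Pcbp3, Brinp3 and Ctla2a. Pcbp3, which encodes a poly(C)-binding protein, was at 7.28, 5.44 and 6.89 CPM in PAR, 12.5, 11.1 and 11.7 CPM in FRC1 and 0.22, 0.308 and 0.304 CPM in SRC3, so that the 3 groups did not overlap. Ctla2a, an inhibitor of cathepsin-type proteases, was at 6.1 ± 0.818 CPM in PAR, 13.3 ± 2.86 CPM in FRC1 and 0.50 ± 0.202 CPM in SRC3.

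Counting every tested gene with 0 reads in all 3 SRC3 libraries, a set defined after the values were seen, gave 12 genes. Each had at least 31 reads in PAR and 15 in FRC1, and each was called lower. A gene without reads in SRC3 could pass the filter on low counts only through PAR or FRC1. These read numbers and calls therefore follow in large part from how the set was defined. Gli2, a transcription factor of the hedgehog pathway, had 169 reads in PAR and 154 in FRC1 (at least 54.1-fold lower in SRC3 than in PAR). Sorcs1, a sorting receptor, had 134 and 46 reads (at least 42.9-fold), and the non-coding RNA Platr3 179 and 485 (at least 57.3-fold). Slc1a6, Pcbd1, Lpcat2, Klhl13, Hgf, Ndn and Ano3 were at least 24.0-, 17.9-, 16.0-, 14.4-, 13.8-, 11.8- and 9.92-fold lower. In the opposite direction 4 tested genes had 0 reads in all PAR libraries, and 3 of them passed: Dmrta1 (108 reads in SRC3, at least 37.5-fold higher), Igfbp4 (58 reads, at least 20.1-fold) and Frem2 (13 reads, at least 4.51-fold). The remaining gene, Fxyd6, had 4 reads in SRC3 and did not pass (edgeR adjusted p = 0.089). Genes without reads in PAR could likewise be tested only through SRC3 or FRC1. In FRC1, Dmrta1 had 1 read and Igfbp4 3, while Frem2 had 107 and Fxyd6 60, more than in SRC3.

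Most tested genes next to those near 0 in SRC3 were within 2-fold of PAR, but falls of at least 2-fold were more frequent than over all tested genes. Among all tested genes 2.93% were called higher and 3.78% lower by at least 2-fold. Over the 21 genes, 40 tested genes outside the 21 were the nearest on either side, and 31 of these were within 2-fold. Cdkn2a and Cdkn2b are neighbours of each other, but both are among the 21 and were left out of the 40 (log2 fold change -8.76 and -9.37). Untested genes were skipped, so the distances ran from 350 bp (Alkbh6, from Clip3) to 2927146 bp (Pla2g4a, from Brinp3). Of the 40, 16 were lower (40.0%, against 20.2% of all tested genes) and 6 higher (15%, against 17.8%), with a median log2 fold change of -0.06. The lowest fitted value among the 40 was -6.1 (Gzmd), and the highest among those with reads in both groups was 0.75 (Col6a1). Dmrta1, the nearest tested gene on the far side of Cdkn2b, had no read in PAR and was higher by the bound given above. A fall of at least 2-fold was found for 8 neighbours (20%, against 3.78% of all tested genes), which were Hs6st2 beside Gpc4, Gzmd and Mcpt8 beside Gzme, Ctla2b beside Ctla2a, Nebl beside Plxdc2, P2rx3 beside Slc43a3, and Mkrn3 and Chrna7 beside Peg12. Hs6st2, which adds sulfate to heparan sulfate chains such as those carried by the glypican Gpc4, fell from 93.7 ± 4.41 CPM to 7.48 ± 1.21 CPM. Gzme and Gzmd are granzymes and Mcpt8 a mast cell protease of the same cluster on chromosome 14, and the near-identical granzymes are uncertain because reads with several alignments were not counted to a gene.

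Around the genes with the largest falls, the values of the nearest genes differed gene by gene. Alkbh6 starts 350 bp from Clip3 and had 174, 133 and 154 reads in PAR and 207, 162 and 164 in SRC3 (edgeR adjusted p = 0.082). Wdr62, on the opposite side of Clip3, had 288, 296 and 303 reads in PAR and 252, 258 and 286 in SRC3 (adjusted p = 0.41). Neither passed, and both were expressed in every library in which Clip3 had no read. Beside Phactr2, Ltv1 was at 77.2 ± 4.24 and 87.4 ± 7.06 CPM (adjusted p = 0.067) and Pex3 at 26.1 ± 1.24 and 26.1 ± 1.88 CPM (adjusted p = 1.0). Fuca2, a lysosomal fucosidase 25128 bp from Phactr2, did fall, with 74, 79 and 63 reads in PAR and 39, 40 and 40 in SRC3 (log2 fold change -0.8, edgeR adjusted p = 0.0025). Beside Gal, Cpt1a, the mitochondrial gate of fatty acid oxidation, fell from 133 ± 5.39 to 86.8 ± 2.69 CPM, and Ppp6r3 fell by 0.14 on the log2 scale. Ndel1, 4802 bp from Myh10, was at 67.0 ± 0.889 and 63.6 ± 1.16 CPM (adjusted p = 0.35).

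**Figure D2:**
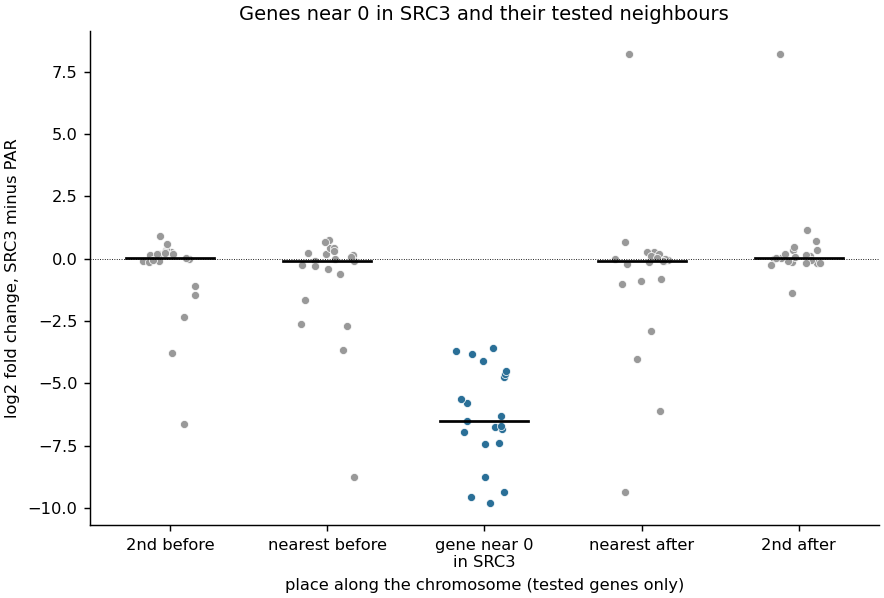
Log2 fold change of SRC3 against PAR (vertical axis) for each of the 21 genes near 0 in SRC3 and for the tested genes before and after it on its chromosome, by order of position among tested genes (horizontal axis), with the median of each place as a bar. The 21 genes themselves lie at fitted values between -9.8 and -3.57. Those of Clip3 (-9.8) and Phactr2 (-9.55) are set by the fit because no read was counted in SRC3. Of the 40 nearest tested genes outside the 21, at whatever distance, 31 lie within 2-fold. At least 2-fold lower were 8 (20%, against 3.78% of all tested genes). Cdkn2a and Cdkn2b are neighbours and so are also drawn in the places beside each other, and Dmrta1, at a fitted 8.22 with no read in PAR, is drawn in both places after them.

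Across the 20 chromosomes with tested genes, the median log2 fold change ranged from -0.019 to 0.038, close to the median of 0.01 over all genes. The share of genes called higher ranged from 14.7 to 19.5% and the share called lower from 17.0 to 24.1%. RefSeq promoter windows of 300 bases (250 before to 50 after the start, build GRCm38.p6) were found by symbol for 16 of the 21 genes near 0. They held a median of 17.5 CpG dinucleotides, from 0 in Gzme to 45 in Cdkn2a and Satb1, and 4 of the 16 reached the median of 23 over the 9427 tested genes with a window (quartiles 16 to 31).

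Other genes were far higher in SRC3 than in PAR. Ly75, which encodes the endocytic receptor DEC-205, was measured at 145, 147 and 148 CPM in PAR and 2163, 2065 and 2236 CPM in SRC3, and at 144, 150.2 and 147 CPM in FRC1. Every SRC3 library was high, with FRC1 at the level of PAR (log2 change 3.88 with SE 0.049, adjusted p = 4.5e-22 by edgeR). Ly75 had the largest rise among genes of at least 100 CPM. Slc25a29, a mitochondrial carrier of basic amino acids, was at 2.8, 1.76 and 2.77 CPM in PAR and 99.7, 104 and 89.4 CPM in SRC3 (log2 fold change 5.3). Aqp1, a water channel, was at 16.6, 15.2 and 16.3 CPM in PAR and 158, 166 and 145 CPM in SRC3 (log2 fold change 3.28). For both genes every SRC3 library was above every PAR and FRC1 library, and FRC1 stood at 3.49 ± 1.0 CPM and 19 ± 2.65 CPM. Nptx1, a secreted pentraxin, rose from 19.5 ± 0.123 CPM to 133 ± 10.6 CPM and was lower in FRC1 than in PAR, at 9.9 ± 0.152 CPM.

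Several of the largest rises were surface receptors and proteoglycans. Cspg4, the proteoglycan NG2, was at 0.56, 0.459 and 1.07 CPM in PAR and 46.9, 47.3 and 62.7 CPM in SRC3, with 4.47, 9.73 and 9.27 CPM in FRC1, so that the groups stood in the order PAR, FRC1, SRC3 without overlap (log2 change 6.2 with SE 0.36, adjusted p = 1.3e-06 by edgeR). Plxna4, a plexin that acts as a receptor for semaphorins, was at 0.56, 0.536 and 0.64 CPM in PAR and 23.5, 24.1 and 24.4 CPM in SRC3, and at 0.603 ± 0.111 CPM in FRC1. The SRC3 libraries were close to each other and far above both other groups. Ngfr, the low-affinity neurotrophin receptor, was at 0.77, 0.536 and 0.782 CPM in PAR and 19.4, 11.3 and 27.5 CPM in SRC3, and at 0.126 ± 0.219 CPM in FRC1. Replicate 3 was the highest and replicate 2 the lowest of the SRC3 libraries for Ngfr, and none overlapped with PAR or FRC1. Cd24a, a membrane glycoprotein, was at 5.74, 5.36 and 5.47 CPM in PAR and 80.4, 60.1 and 88.9 CPM in SRC3, and at 2.02 ± 0.548 CPM in FRC1, which was under PAR.

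Secreted regulators and nuclear or RNA-binding proteins were also among the rises. Grem1, an antagonist of bone morphogenetic proteins, rose from 0.169 ± 0.039 CPM to 8.84 ± 2.52 CPM, and Bmper, which also binds these ligands, rose from 2.7 ± 0.411 CPM to 29.4 ± 1.19 CPM. Igf2bp3, an RNA-binding protein of the family that binds Igf2 messenger RNA, was at 4.9, 4.44 and 4.33 CPM in PAR and 89, 91.7 and 93.2 CPM in SRC3, with FRC1 at 9.37 ± 1.27 CPM. Tfap2a, the transcription factor AP-2 alpha, rose from 1.37 ± 0.295 CPM to 14.7 ± 1.79 CPM. Pla2g7, a secreted phospholipase, rose from 1.31 ± 0.171 CPM to 23.1 ± 3.76 CPM, Slc9a2, a sodium and proton exchanger, from 1.8 ± 0.502 CPM to 16.1 ± 0.884 CPM, Tinagl1, a matrix protein, from 8.51 ± 0.789 CPM to 64.3 ± 6.32 CPM, and Map3k5, a kinase of stress signalling, from 0.602 ± 0.0573 CPM to 5.64 ± 0.532 CPM. Each was also higher in SRC3 than in FRC1, with edgeR adjusted p from 5.3e-17 (Igf2bp3) to 1.9e-07 (Map3k5). Among genes of at least 100 CPM, Wnt7b, a secreted Wnt ligand, rose from 60.8 ± 3.51 CPM to 152 ± 7.55 CPM, Flrt2, an adhesion protein, from 142 ± 12.4 CPM to 364 ± 20.8 CPM, and Atp1b1, a subunit of the sodium pump, from 64.8 ± 3.6 CPM to 154 ± 11.3 CPM.

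**Figure D3:**
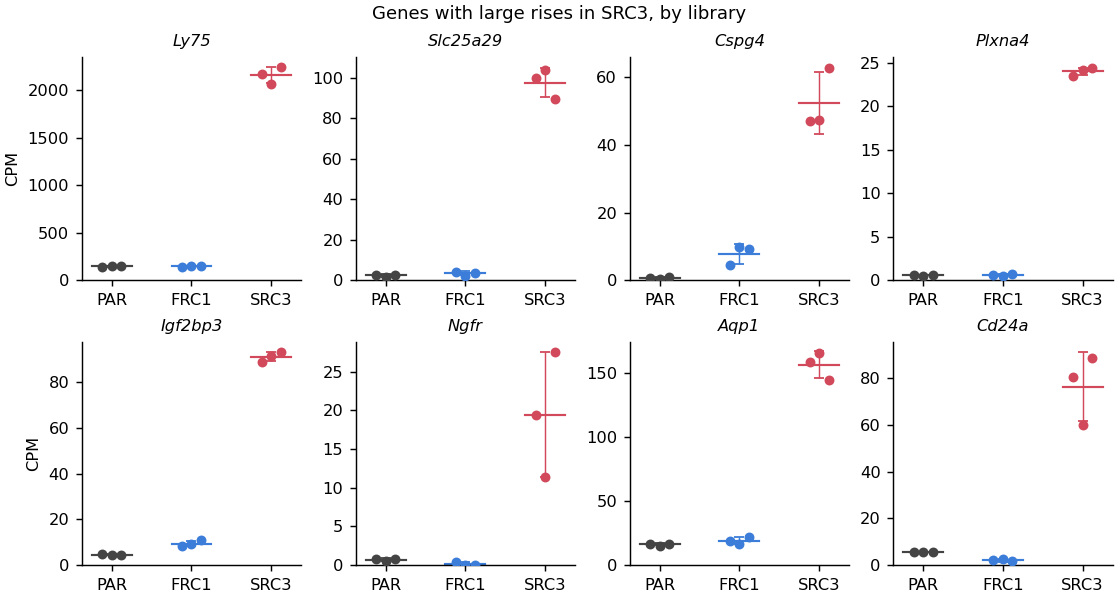
Level in each of the 9 libraries (points, CPM on a linear axis from 0) of 8 genes with large rises in SRC3, with the mean and SD of PAR, FRC1 and SRC3 as horizontal lines and error bars. In every panel the 3 SRC3 libraries lie above the 3 PAR libraries, and for Ly75 and Plxna4 the FRC1 libraries lie at the level of PAR.

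Genes of protein folding in the endoplasmic reticulum (ER) were higher in SRC3 almost throughout. Cells raise these chaperones through the unfolded protein response, in which the factors ATF6 and XBP1 act with NF-Y at a bipartite promoter element, the ER stress element (ERSE). Of 31 tested ER chaperones and folding enzymes, 25 rose (80.6%, against 17.8% of all tested genes) and 2 fell, with a median log2 fold change of 0.47 against 0.01 over all tested genes. Of 37 tested genes of ER-associated degradation and translocation, 30 rose (81.1%) and 1, Ube2j1, fell by 0.28 on the log2 scale, with a median of 0.34.

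The ERSE, searched on both strands as CCAAT followed after 9 bases by CCACG, was found in 39 of 32851 RefSeq promoter windows of 300 bases (0.119%). It was found in 16 of the 9427 tested genes with a window (0.17%), of which 12 were higher in SRC3, 3 did not pass (Acacb, Adcy3 and Pan2) and 1, Spats2l, was lower. Of the 25 ER chaperone genes with a window 8 held it, and all 8 rose: Calr, Canx, Creld2, Dnajc3, Ero1lb, Hsp90b1, Hspa5 and Pdia6. Of all tested members of that list, with or without the element, 80.6% rose. The related ERSE-II, ATTGG followed after 1 base by CCACG on either strand, was in 12 windows (0.0365%), among them Dnajb11 and Herpud1. A match describes the letters only. Stretches of 6 of these promoters are shown because these genes carry the element and were among the chaperones that rose. They are from RefSeq, build GRCm38.p6, on the strand of the gene, with the element in capitals in either orientation.
Hspa5, chr2:34771890-34772089, plus strand: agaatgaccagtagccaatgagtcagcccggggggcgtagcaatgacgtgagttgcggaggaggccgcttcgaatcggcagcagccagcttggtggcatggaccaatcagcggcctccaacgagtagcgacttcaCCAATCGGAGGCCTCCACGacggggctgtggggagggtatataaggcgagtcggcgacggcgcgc
Creld2, chr15:88819469-88819588, plus strand: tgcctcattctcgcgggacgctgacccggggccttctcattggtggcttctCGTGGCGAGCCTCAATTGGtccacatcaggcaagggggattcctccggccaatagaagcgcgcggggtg
Hsp90b1, chr10:86705505-86705684, minus strand: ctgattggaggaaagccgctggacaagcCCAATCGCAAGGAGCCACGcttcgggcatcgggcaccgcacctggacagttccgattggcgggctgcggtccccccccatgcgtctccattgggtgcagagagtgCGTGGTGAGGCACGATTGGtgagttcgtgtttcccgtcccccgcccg
Pdia6, chr12:17266440-17266559, plus strand: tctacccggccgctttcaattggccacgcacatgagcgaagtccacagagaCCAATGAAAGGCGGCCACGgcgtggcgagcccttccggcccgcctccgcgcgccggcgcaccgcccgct
Dnajc3, chr14:118937776-118937895, plus strand: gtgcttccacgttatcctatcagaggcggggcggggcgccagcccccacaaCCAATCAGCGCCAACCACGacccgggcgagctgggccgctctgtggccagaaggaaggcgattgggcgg
Ero1lb, chr13:12565633-12565752, plus strand: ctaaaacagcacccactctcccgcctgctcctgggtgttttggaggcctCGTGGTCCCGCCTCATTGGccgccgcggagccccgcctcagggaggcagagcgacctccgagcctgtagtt

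Counted to its first base, the element began 65 bases before the start site in Hspa5, 126 in Creld2, 98 in Pdia6, 105 in Dnajc3 and 201 in Ero1lb, and Hsp90b1 held 2, at 212 and 107 bases. In Creld2, in Ero1lb and for the second element of Hsp90b1 it read in the reverse orientation.

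Hspa5, the ATP-dependent chaperone BiP that holds the stress sensors inactive, was at 2021, 2029 and 1885 CPM in PAR and 4498, 4731 and 3878 CPM in SRC3. The groups did not overlap (log2 change 1.14 with SE 0.07, adjusted p = 6.6e-09 by edgeR), and FRC1 was at 3805 ± 282 CPM. Creld2, a secreted ER protein, was at 90.5, 87.5 and 80.7 CPM in PAR and 257, 269 and 213 CPM in SRC3, with FRC1 at 200.5 ± 7.92 CPM (log2 change 1.52 with SE 0.076, adjusted p = 2.2e-10 by edgeR). Sdf2l1, a partner of BiP, rose from 86.9 ± 5.2 CPM to 235 ± 29 CPM, Hyou1, a nucleotide exchange factor of BiP, from 439 ± 10.3 CPM to 1000.0 ± 122 CPM, and Ero1lb, an oxidase that supplies disulfide bonds, from 17.1 ± 0.198 CPM to 43 ± 3.57 CPM. All 3 SRC3 libraries were above all 3 PAR libraries for each of them. The 2 members that fell were Fkbp14, a prolyl isomerase, from 17.8 ± 1.47 CPM to 12.2 ± 0.95 CPM, and Fkbp9, of the same family, with a 1.12-fold fall whose adjusted p of 0.012 was 0.057 to 0.069 without PAR replicate 1, PAR replicate 2 or SRC3 replicate 3.

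Genes that clear misfolded proteins from the ER were also higher. Sel1l, the scaffold of the ubiquitin ligase that acts there, was at 154, 153 and 143 CPM in PAR and 301, 298 and 288 CPM in SRC3 and rose 1.97-fold, with FRC1 between the groups at 213 ± 7.96 CPM. Its ligase Syvn1 rose from 69.3 ± 6.78 CPM to 112 ± 4.89 CPM, Edem1, a lectin-like mannosidase, from 104 ± 3.6 CPM to 189 ± 10.2 CPM, and Rpn1, a subunit of the oligosaccharyltransferase, from 401 ± 12.3 CPM to 639 ± 25.3 CPM. Against FRC1, of the 31 chaperones 12 were higher (15.5% of all tested genes) and 7 lower (18%) in SRC3, with a median log2 difference of 0.05, and of the 37 degradation genes 5 were higher and 5 lower, with a median of -0.02.

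Stress sensors and targets of ATF4, the factor induced when translation initiation is limited, were mixed. Of 33 tested, 15 rose (45.5%, against 17.8% of all tested genes) and 3 fell (9.09%, against 20.2%), with a median of 0.13. Stc2, a secreted glycoprotein, rose from 19.1 ± 1.8 CPM to 41.8 ± 2.88 CPM, and Trib3, a pseudokinase, from 66.6 ± 6.73 CPM to 131 ± 18.7 CPM. Vldlr, a lipoprotein receptor, rose from 29.1 ± 0.465 CPM to 60.5 ± 3.87 CPM, and Adm2 from 4.97 ± 0.665 CPM to 8.62 ± 0.472 CPM. These 4 genes were lower or near PAR in FRC1, at 16.3 ± 1.26 CPM, 60 ± 2.21 CPM, 13.4 ± 0.235 CPM and 4.6 ± 0.113 CPM, and each was higher in SRC3 than in FRC1 with edgeR adjusted p of 2.9e-10, 3e-06, 9e-15 and 4.3e-05. Ddit4, an inhibitor of mTORC1, fell from 21.8 ± 0.657 CPM to 16.1 ± 0.894 CPM, and Eif2ak4, the kinase that senses amino acid shortage, from 36.9 ± 0.938 CPM to 30.1 ± 1.22 CPM. Of 36 genes of vesicle traffic between ER and Golgi 13 rose (36.1%) and 4 fell, with a median of 0.09.

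Contractile genes of the smooth muscle and actin programme were lower in SRC3. Serum response factor (SRF), with its cofactors of the myocardin family, drives these genes through the CArG box when actin is polymerised. Of 29 tested members of this list, 20 fell (69.0%, against 20.2% of all tested genes), with a median of -0.35. By edgeR 0 rose (17.8% of all tested genes), 1 at an unadjusted p under 0.05. DESeq2 called 1 rise (Csrp2), limma voom 0, and edgeR on the 6 libraries alone 2 (Csrp2 and Fhl2), and 2 also without FRC1 replicate 1 or 2. Of the 20, 18 were lower than in FRC1 too.

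The CArG box, searched by its consensus on both strands, was found in 535 of 32851 windows (1.63%) and in 152 of the 9427 tested genes with a window (1.61%). Of these 152 genes 21 were higher (13.8%) and 47 lower (30.9%) in SRC3, with a median log2 fold change of -0.09, against 18.2% higher and 21.0% lower with a median of 0 among all tested genes with a window. Of the 25 listed genes with a window 8 held the box: Cnn2, Fhl1, Filip1l, Myl6, Myl9 and Vcl fell, and Fhl2 and Srf did not pass. Parts of 4 of these promoters are shown since they carry the box and belong to genes that fell, from RefSeq, build GRCm38.p6, with the CArG box in capitals.
Myl9, chr2:156775248-156775367, plus strand: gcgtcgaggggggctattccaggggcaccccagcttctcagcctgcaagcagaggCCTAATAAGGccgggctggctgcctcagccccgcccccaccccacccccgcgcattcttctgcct
Fhl1, chrX:56779526-56779645, plus strand: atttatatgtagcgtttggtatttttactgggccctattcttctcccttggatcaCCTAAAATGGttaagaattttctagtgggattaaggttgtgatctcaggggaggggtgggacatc
Cnn2, chr10:79988480-79988599, plus strand: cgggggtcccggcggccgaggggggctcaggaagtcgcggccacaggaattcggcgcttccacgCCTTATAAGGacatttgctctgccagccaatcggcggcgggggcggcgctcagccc
Vcl, chr14:20929148-20929267, plus strand: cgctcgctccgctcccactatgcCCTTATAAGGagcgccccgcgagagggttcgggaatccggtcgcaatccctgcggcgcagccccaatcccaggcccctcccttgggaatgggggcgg

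The box began 161 bases before the start site in Myl9, 102 in Fhl1, 56 in Cnn2 and 227 in Vcl. Fhl1 has 2 windows, of which the one with the box is shown.

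Tagln, which encodes the actin-binding protein transgelin, was at 110.5, 124 and 103 CPM in PAR and 5.72, 11.1 and 2.96 CPM in SRC3, with 169, 263 and 219 CPM in FRC1. All SRC3 libraries were far under PAR and all FRC1 libraries were above it (log2 change -4.09 with SE 0.37, adjusted p = 0.00018 by edgeR). Fhl1, a LIM-domain protein of muscle, was at 138, 151 and 145 CPM in PAR and 5.21, 8.25 and 2.51 CPM in SRC3, and at 131, 116 and 104 CPM in FRC1 (log2 change -4.77 with SE 0.25, adjusted p = 3.7e-06 by edgeR). Within SRC3, replicate 2 was the highest and replicate 3 the lowest for both genes. Acta2, smooth muscle actin, was at 65, 73.6 and 63 CPM in PAR and 7.7, 14.3 and 3.8 CPM in SRC3, and at 173, 233 and 192 CPM in FRC1. Its SRC3 libraries had the same order, and none overlapped with PAR. Myl9, a regulatory light chain of myosin, was at 39.7, 41.4 and 40.2 CPM in PAR and 14.2, 22 and 10.5 CPM in SRC3 (log2 change -1.38 with SE 0.25, adjusted p = 0.0036 by edgeR), the same order again. Because actins are near-identical, the level of Acta2 rests on its unique reads.

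**Figure D4:**
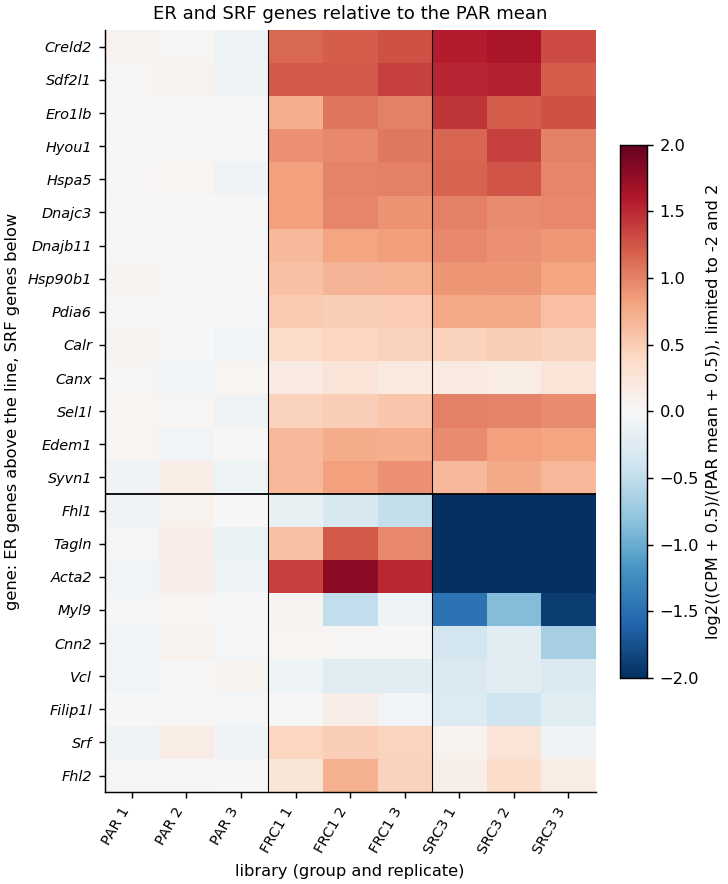
Log2 level of each member gene in each of the 9 libraries relative to its mean in PAR, drawn from CPM plus 0.5 and limited to -2 and 2, for 14 genes of ER folding and degradation (above the line) and 9 SRF contractile genes (below it). The ER genes are above PAR in both FRC1 and SRC3, and Fhl1, Tagln, Acta2 and Myl9 are far below PAR in SRC3, with Tagln and Acta2 above PAR in FRC1.

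Most tested genes of the non-muscle cytoskeleton were lower, against 20.2% of all tested genes. Of 17 tested non-muscle myosin and cytoplasmic actin genes 10 fell (58.8%) and 1, Anln, an anillin of the cleavage furrow, rose by 0.16 on the log2 scale. Myh10 had the largest fall of the list and was at 132, 136 and 138 CPM in PAR and 0.66, 0.771 and 0.532 CPM in SRC3, and at 109 ± 6.19 CPM in FRC1. Myh9, the most abundant of the non-muscle myosin heavy chains here, fell from 1549 ± 52.6 CPM to 1195 ± 176 CPM. The kinases Rock2 and Rock1, which raise the activity of these myosins, fell from 442 ± 20.1 CPM to 336 ± 18.2 CPM and from 114 ± 6.29 CPM to 91 ± 10.5 CPM.

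Many sarcomere genes, which encode the contractile apparatus of differentiated muscle, were at low levels in both groups. Of 45 listed genes 35 were tested, but 13 of them passed the filter on low counts through FRC1 alone, so counts are given for the other 22. Of these 9 were higher and 4 lower in SRC3, against 17.8% and 20.2% of all tested genes. In PAR 16 of the 35 were under 1 CPM and in SRC3 10, while in FRC1 1 was. For the 13 that passed through FRC1 alone this order follows in large part from the filter. Xirp1, an actin-binding protein of developing myofibrils, was at 2.87, 6.82 and 5.69 CPM in PAR and 29, 27 and 32.3 CPM in SRC3, and at 10.5 ± 4.08 CPM in FRC1. Tnnt2, cardiac troponin T, was at 61.8, 62.1 and 63 CPM in PAR and 142, 147 and 137 CPM in SRC3, and at 169 ± 35.3 CPM in FRC1. Both were higher in all SRC3 libraries than in all PAR libraries. The 4 that fell were Des from 731 ± 17.1 CPM to 472 ± 18.7 CPM, Tpm1 from 1142 ± 6.07 CPM to 880.1 ± 39.1 CPM, Tpm2 from 449 ± 9.59 CPM to 317 ± 43 CPM, and Myom2, a protein of the sarcomere's M-band, from 8.02 ± 0.67 CPM to 1.56 ± 0.171 CPM.

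Regulators of the myogenic programme moved in both directions. Of 14 tested myogenic transcription factors, 3 rose (21.4%, against 17.8% of all tested genes), 5 fell (35.7%, against 20.2%) and 6 did not pass, with a median of -0.15. Myod1 fell from 776 ± 15.1 CPM to 539.6 ± 18.8 CPM, with FRC1 at 771 ± 15.9 CPM, and Mef2d fell from 117 ± 1.73 CPM to 92.6 ± 3.36 CPM. Myog, which drives entry into differentiation, was at 0.77, 0.383 and 0.569 CPM in PAR and 1.47, 2.24 and 1.14 CPM in SRC3, and at 7.81, 10.8 and 8.34 CPM in FRC1, a rise over PAR at a level that stayed below all FRC1 libraries. Mef2c rose from 0.501 ± 0.241 CPM to 3.94 ± 1.53 CPM, and Twist2, a repressor of Myod1 activity, from 0.87 ± 0.21 CPM to 5.64 ± 0.368 CPM. Myf5, which is expressed in many satellite cells, had 0 reads in PAR and 1 in SRC3, and Myf6 0 and 2.

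Of 21 tested genes of satellite cell identity and quiescence 11 fell (52.4%, against 20.2% of all tested genes) and 6 rose (28.6%, against 17.8%). Megf10, an engulfment receptor found on satellite cells, was at 106, 99.4 and 119 CPM in PAR and 261, 281 and 329 CPM in SRC3. It was above PAR and FRC1, at 123 ± 10.7 CPM, in every SRC3 library. Cd34 rose from 1.14 ± 0.199 CPM to 4.29 ± 1.47 CPM, Spry1, an inhibitor of growth factor signalling, from 3.51 ± 0.505 CPM to 6.5 ± 0.59 CPM, and Tenm4 from 3.2 ± 0.866 CPM to 6.95 ± 2.4 CPM. In the opposite direction Cdh15, M-cadherin, fell from 269 ± 7.8 CPM to 148 ± 16.4 CPM, Fgfr4, a receptor of fibroblast growth factors, from 26.5 ± 2.21 CPM to 9.19 ± 0.683 CPM, and Hey1, a target of Notch, from 10.3 ± 1.22 CPM to 2.06 ± 0.076 CPM. Genes used as marks of quiescence thus rose and fell within the same list.

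Genes of myoblast fusion were mostly lower, with a median of -0.36. Of 14 tested, 10 were lower (71.4%, against 20.2% of all tested genes) and 2 higher (14.3%, against 17.8%). Tmem8c, which encodes the fusion protein myomaker, fell from 5.0 ± 0.727 CPM to 1.16 ± 0.281 CPM, Jam3, an adhesion molecule, from 95.5 ± 2.98 CPM to 53.5 ± 1.84 CPM, and Stab2, a scavenger receptor that binds phosphatidylserine, from 4.56 ± 0.678 CPM to 1.98 ± 0.213 CPM. Those that rose were Dysf, a protein of membrane repair, from 6.66 ± 1.56 CPM to 11.9 ± 1.24 CPM, and Kirrel3 from 0.459 ± 0.109 CPM to 1.21 ± 0.321 CPM. Chrng, the embryonic gamma subunit of the muscle acetylcholine receptor and one of the 12 largest falls among genes of at least 100 CPM, was at 164, 162 and 155 CPM in PAR and 32.6, 36.4 and 34.8 CPM in SRC3, and at 82.9 ± 18 CPM in FRC1, so that the order was PAR, FRC1, SRC3.

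Most DNA replication genes were higher, while most mitosis genes did not pass. Of 48 tested genes of replication 32 rose (66.7%, against 17.8% of all tested genes) and 1 fell (2.08%, against 20.2%), with a median of 0.22. Against FRC1, 22 of the 48 were higher (15.5% of tested genes). Cdc6, which loads the replicative helicase, was at 51.7, 51.2 and 52 CPM in PAR and 79.1, 82.3 and 79.5 CPM in SRC3. The SRC3 libraries were all above PAR (log2 change 0.64 with SE 0.055, adjusted p = 1.5e-08 by edgeR). Gins1, part of the helicase, rose from 16 ± 0.72 CPM to 25.3 ± 0.618 CPM, and Rfc3 and Rfc4, subunits of the clamp loader, from 26.1 ± 1.95 CPM to 42.3 ± 2.17 CPM and from 26.1 ± 2.21 CPM to 37.5 ± 0.80 CPM. Rrm1, a subunit of ribonucleotide reductase, fell from 562 ± 9.3 CPM to 483 ± 7.1 CPM. Of 43 tested mitosis genes 5 rose, 6 fell and 32 did not pass, against 37.9% of all tested genes called. Without SRC3 replicate 2 the mitosis genes that rose numbered 8, and those that fell numbered 1 without PAR replicate 1 and 2 without SRC3 replicate 1. Birc5, survivin, rose from 117 ± 7.73 CPM to 143 ± 4.41 CPM, Mad2l1, of the spindle checkpoint, from 102 ± 2.17 CPM to 122 ± 7.01 CPM, and Ect2, a guanine nucleotide exchange factor that acts at cell division, fell from 202 ± 7.0 CPM to 157 ± 15.1 CPM.

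Of 20 tested G1 cyclins, their kinases and E2F genes 8 fell (40.0%) and 5 rose (25%), and the D-type cyclins were among those that fell. Ccnd2 was at 439, 447 and 442 CPM in PAR and 209, 222 and 198 CPM in SRC3 and Ccnd3 at 185, 194 and 184 CPM in PAR and 70.5, 66.3 and 67.1 CPM in SRC3, without overlap (2.11-fold and 2.76-fold lower). Ccnd1, named although it was outside the naming rule because it is the remaining D-type cyclin, fell from 1985 ± 18.5 CPM to 1196 ± 55.2 CPM. Mycn fell from 1.64 ± 0.159 CPM to 0.351 ± 0.0772 CPM. Ccne1 fell from 69 ± 2.04 CPM to 36.4 ± 2.59 CPM while its paralog Ccne2 rose from 35.7 ± 2.32 CPM to 47.2 ± 7.47 CPM. E2f7, a repressor of the E2F family, rose from 44 ± 2.85 CPM to 66.2 ± 4.09 CPM, E2f1 from 41.3 ± 1.2 CPM to 51.7 ± 4.13 CPM and Myc from 179 ± 7.36 CPM to 217 ± 17.6 CPM. Of the 26 genes of cell cycle inhibitors and pocket proteins, including Cdkn2a and Cdkn2b, 8 were lower (30.8%, against 20.2% of all tested genes). Higher were 4 (15.4%, against 17.8%), or 2 without PAR replicate 2. Tob1 fell from 29 ± 1.51 CPM to 12.4 ± 2.07 CPM, and Btg1 and Gadd45b rose from 29.5 ± 1.43 CPM to 37.6 ± 3.8 CPM and from 10.7 ± 0.924 CPM to 17.7 ± 1.25 CPM.

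Targets of p53, which rises with damage and with p19ARF, a product of Cdkn2a that blocks the p53 ligase Mdm2, fell more often than they rose. Of 32 tested, 16 fell (50.0%, against 20.2% of all tested genes) and 2 rose (6.25%, against 17.8%), with a median of -0.2. Lower than both PAR and FRC1 were 10 of the 32 (11.1% of all tested genes). Zmat3, an RNA-binding protein, was at 149, 157 and 172 CPM in PAR and 53.7, 52.7 and 60.7 CPM in SRC3, and at 97.1 ± 6.42 CPM in FRC1. The groups stood in the order PAR, FRC1, SRC3 without overlap (log2 change -1.51 with SE 0.068, adjusted p = 7e-13 by edgeR). Eda2r, a receptor of the tumour necrosis factor family, fell from 28.9 ± 1.66 CPM to 10.5 ± 0.40 CPM, and Btg2 from 6.62 ± 0.862 CPM to 1.94 ± 0.559 CPM. The 2 that rose were Pmaip1, the cell death protein Noxa, from 6.64 ± 0.675 CPM to 10.6 ± 0.952 CPM, and Mdm4, an inhibitor of p53, from 74 ± 5.19 CPM to 88.7 ± 6.17 CPM.

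Lysosome and glycolysis genes tended lower, and ribosomal protein genes higher, by small amounts. Among all tested genes 20.2% were lower and 17.8% higher. Of 51 tested lysosome and autophagy genes 24 fell (47.1%) and 3 rose (5.88%), or 1 without PAR replicate 2 or 3, with a median of -0.14. Hexa, a subunit of lysosomal hexosaminidase, fell from 48 ± 0.957 CPM to 30.9 ± 2.78 CPM, and Gaa, acid glucosidase, from 89 ± 1.47 CPM to 59.6 ± 2.38 CPM. Ctsh, a cathepsin, went the opposite way and rose from 29.9 ± 2.72 CPM to 64 ± 5.61 CPM. Of 24 tested glycolysis and lactate genes 13 fell (54.2%), among them Pfkm, muscle phosphofructokinase, from 40.6 ± 2.39 CPM to 22 ± 2.15 CPM, and Pfkfb3, which makes its activator, from 32.5 ± 1.47 CPM to 18.2 ± 2.01 CPM. The 13 became 7 without PAR replicate 2 and 8 without SRC3 replicate 3. Slc16a3, the lactate exporter, rose from 15.7 ± 2.95 CPM to 28 ± 6.05 CPM. Of 81 ribosomal protein genes 31 rose (38.3%) and 1 fell, with a median of 0.1. Rpl22l1 and Rpl35a rose from 87.7 ± 4.26 CPM to 113 ± 7.97 CPM and from 48.2 ± 2.11 CPM to 61.2 ± 5.63 CPM, and these genes are uncertain because they have many near-identical copies whose reads were not counted to a gene.

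Mitochondrial genes differed little from PAR. The shares over all tested genes were 17.8% higher and 20.2% lower. Among the 57 tested nuclear genes of the respiratory chain and ATP synthase, 9 were higher, 4 lower (2 without PAR replicate 1 or without SRC3 replicate 1 or 3) and 44 not called, with a median of 0.05, while 30 of the 57 were higher in SRC3 than in FRC1 (15.5% of all tested genes). Ppargc1a, a coactivator of mitochondrial genes, fell from 8.35 ± 0.479 CPM to 2.76 ± 0.392 CPM. Atp5e, a subunit of the ATP synthase, rose from 78.9 ± 3.07 CPM to 95.1 ± 4.01 CPM. Of 10 tested genes encoded in the mitochondrion 2 rose, among them mt-Cytb from 3195 ± 124 CPM to 3969 ± 269 CPM, with FRC1 at 2615 ± 111 CPM. The 2 became 5 without SRC3 replicate 2 and 1 without PAR replicate 2 or SRC3 replicate 3.

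Most tested imprinted genes were lower. These genes are expressed from 1 parental chromosome, and many of them regulate growth. Of 25 tested 16 fell (64.0%, against 20.2% of all tested genes) and 3 rose (12%, against 17.8%), with a median of -0.4. H19, a long non-coding RNA of the maternal chromosome, was at 1065, 1016 and 1084 CPM in PAR and 148, 164 and 139.9 CPM in SRC3, and at 824, 584 and 723 CPM in FRC1. SRC3 replicate 2 was the highest of its group and still far under the lowest PAR and FRC1 libraries (log2 change -2.81 with SE 0.12, adjusted p = 2.5e-07 by edgeR). Mest, expressed from the paternal chromosome, was at 219, 177 and 220.2 CPM in PAR and 28.4, 25.1 and 36.3 CPM in SRC3, with FRC1 at 151 ± 44.9 CPM (log2 change -2.78 with SE 0.27, adjusted p = 0.00026 by edgeR). Mkrn3, near Peg12 on chromosome 7, fell from 2.18 ± 0.373 CPM to 0.681 ± 0.0924 CPM, and Ndn, of the same imprinted region, had no read in SRC3, against 37 in PAR and 15 in FRC1. Ppp1r9a rose from 5.44 ± 0.924 CPM to 14 ± 2.13 CPM, and Peg10 from 83.8 ± 2.89 CPM to 97.1 ± 6.02 CPM. For Peg10 FRC1, at 65.4 ± 4.57 CPM, was lower than PAR.

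The insulin-like growth factor (IGF) axis changed in most of its tested members. Of 18, 9 were lower (50.0%, against 20.2% of all tested genes), 6 higher (33.3%, against 17.8%) and 3 did not pass. The binding proteins, which hold the ligands outside the cell, moved apart. Igfbp2 was at 337, 321 and 339 CPM in PAR and 36.7, 45.3 and 39.5 CPM in SRC3, and at 335, 304 and 321 CPM in FRC1. SRC3 alone was low (log2 change -3.04 with SE 0.066, adjusted p = 4.2e-18 by edgeR). Igfbp7 fell from 4.04 ± 0.52 CPM to 0.913 ± 0.443 CPM. Igfbp6 was at 6.02, 6.66 and 5.9 CPM in PAR and 28.9, 31.3 and 29.9 CPM in SRC3, with FRC1 at 3.91 ± 0.355 CPM, and Igfbp3 rose from 2.45 ± 0.47 CPM to 8.82 ± 1.01 CPM. Reads of Igfbp4 numbered 58 in SRC3, 3 in FRC1 and 0 in PAR. Grb14, an adaptor that inhibits the insulin receptor, fell from 12.9 ± 0.669 CPM to 2.42 ± 0.775 CPM.

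Other genes of at least 100 CPM with large falls had no list of their own. Kif16b, a kinesin of endosomes, was at 281, 282 and 295 CPM in PAR and 38.8, 41.9 and 37.9 CPM in SRC3, and at 570.4, 495 and 554 CPM in FRC1. It was low in all SRC3 libraries and higher in FRC1 than in PAR (log2 change -2.85 with SE 0.062, adjusted p = 4.2e-18 by edgeR). Alox5, which makes leukotriene precursors, fell from 467 ± 18.6 CPM to 147 ± 32 CPM, Sat1, an enzyme of polyamine breakdown, from 135 ± 2.97 CPM to 32.7 ± 2.17 CPM, and Antxr1, a collagen-binding receptor, from 129.5 ± 2.87 CPM to 44.6 ± 1.47 CPM.

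Matrix genes differed chain by chain, beside shares of 17.8% higher and 20.2% lower over all tested genes. Of 17 tested collagen chains 8 rose (47.1%) and 4 fell (23.5%), or 2 without PAR replicate 3 or SRC3 replicate 1, with a median of 0. Col7a1 and Col16a1 rose from 4.44 ± 0.711 CPM to 19.2 ± 2.18 CPM and from 2.75 ± 0.143 CPM to 11.3 ± 2.42 CPM, and Col4a5, a chain of basement membranes, from 0.90 ± 0.215 CPM to 4.15 ± 0.167 CPM. Col3a1, the most abundant in PAR of the chains that changed, fell from 561 ± 15.9 CPM to 279 ± 14.8 CPM, and Col27a1 from 6.05 ± 0.352 CPM to 2.9 ± 0.314 CPM. Of 42 tested matrix glycoproteins, laminins and proteoglycans 20 fell (47.6%) and 7 rose (16.7%), with a median of -0.33. Nid2, a basement membrane linker, was at 26.7, 31.9 and 30.1 CPM in PAR and 4.03, 3.62 and 2.36 CPM in SRC3, and Fbn1, fibrillin, fell from 49.2 ± 3.37 CPM to 10.1 ± 0.925 CPM. Tgfbi rose from 1.06 ± 0.219 CPM to 2.6 ± 0.623 CPM.

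Signalling and patterning families changed without a common direction. Over all tested genes 17.8% were higher and 20.2% lower. Of 45 tested guidance genes 12 rose (26.7%) and 15 fell (33.3%). The ephrin receptor Epha4 rose from 7.78 ± 1.77 CPM to 26 ± 3.95 CPM and Robo2 from 1.16 ± 0.716 CPM to 4.79 ± 1.24 CPM. The related Robo1 fell from 95.5 ± 1.73 CPM to 31.8 ± 2.02 CPM and Plxna2 from 38.8 ± 2.28 CPM to 15.3 ± 1.3 CPM. Of 21 tested Notch pathway genes 4 rose (2 without PAR replicate 1 or 2) and 8 fell, with the ligands Jag1 and Jag2 higher (10.2 ± 1.1 and 18.1 ± 1.82 CPM for Jag1 in PAR and SRC3, 175 ± 3.09 and 210.2 ± 7.45 CPM for Jag2) and Dll1 lower (7.33 ± 1.1 and 4.17 ± 0.282 CPM). Of 27 tested genes of FGF, HGF and ERK feedback 8 rose (29.6%) and 12 fell (44.4%). Fgf2, a growth factor for myoblasts, rose from 1.01 ± 0.291 CPM to 4.28 ± 0.199 CPM, Fgf5 from 0.12 ± 0.0373 CPM to 1.18 ± 0.362 CPM and Flrt3 from 1.06 ± 0.0113 CPM to 5.18 ± 0.401 CPM, while Hgf, the ligand of Met, had 43 reads in PAR and 0 in SRC3. Within the Hoxb cluster on chromosome 11, Hoxb5, Hoxb6 and Hoxb7 rose from 1.7 ± 0.37 CPM to 3.73 ± 0.702 CPM, from 6.83 ± 1.88 CPM to 14.5 ± 1.75 CPM and from 12 ± 0.29 CPM to 20.6 ± 0.221 CPM, while Hoxb8 fell from 4.68 ± 0.532 CPM to 2.66 ± 0.496 CPM and Hoxb9 from 10.1 ± 0.959 CPM to 0.532 ± 0.433 CPM. The fall of Hoxb9 was 18.7-fold, and 32.6-fold without SRC3 replicate 2.

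The marker lists of other cell types held detected genes as well as genes without reads. In bulk RNA, fewer cells of a type and less RNA per cell cannot be told apart. The 11 myoblast markers, 9 of them tested with 7 lower and 1 higher, summed to 3337 to 3419 CPM in the PAR libraries and 2337 to 2540 in SRC3. The 15 glial and neural markers summed to 209.7 to 217.2 CPM in PAR and 299.9 to 314.8 in SRC3. Of the 6 tested 5 were higher, Ngfr among them, while the defining Schwann cell genes Sox10 and S100b had 0 reads in all 9 libraries. The 13 pericyte and smooth muscle markers, 4 of them tested, summed to 746.2 to 780.2 CPM in PAR and 524.1 to 554.1 in SRC3, with 3 lower and 1, Cspg4, higher, and Pdgfrb at 1 and 2 reads. The 21 fibroblast markers, 8 of them tested with 4 lower and 2 higher, summed to 197.4 to 206.7 CPM in PAR and 150.4 to 155.3 in SRC3, and Dcn had 3 and 5 reads. The 16 tendon and cartilage markers, 4 of them tested with 2 lower and 1 higher, summed to 163.8 to 179.8 CPM in PAR and 146.8 to 158.9 in SRC3. The 9 adipocyte markers, 3 of them tested with 1 lower and 1 higher, summed to 51.24 to 52.58 and 47.05 to 54.34 CPM. Endothelial markers summed to 3.838 to 4.971 CPM in PAR and 4.913 to 5.862 in SRC3, and immune markers to 8.884 to 10.71 and 11.02 to 13.27, with Ptprc at 0 reads in both. The part of these cell types in the rises of Ngfr and Cspg4 and in the falls of Tagln and Acta2 was not tested.

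**Figure D5:**
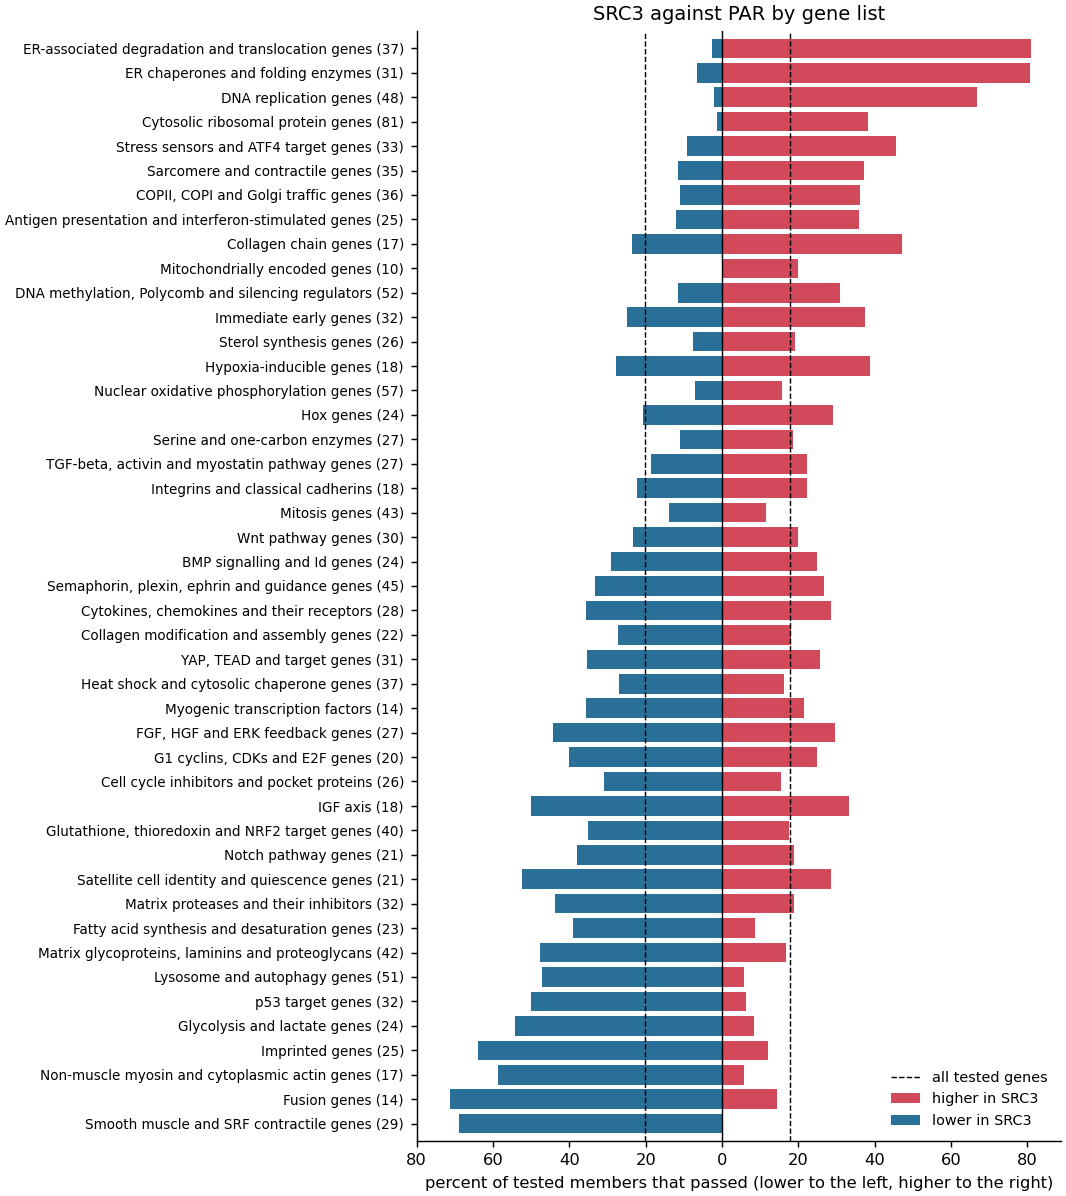
Share of the tested members of each gene list, without the lists of cell type markers, that were higher (right) or lower (left) in SRC3 than in PAR, in percent, with the shares over all 12540 tested genes (17.8% and 20.2%) as dashed lines, and the number of tested members in parentheses. Of the lists drawn, ER folding and degradation genes and DNA replication genes extend furthest to the right, and fusion, SRF contractile and imprinted genes furthest to the left.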

How the data were processed

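For each of the 9 libraries the authors deposited raw counts of reads per gene, whole numbers with no normalization, from polyadenylated RNA sequenced as single reads of 50 nt, per the labels' protocols. HISAT2 2.1.0, HTSeq 0.9.1 and build GRCm38 are among the entries of the submitters' processing notes. How strand was treated in counting is not given in the sources, so counts of overlapping and antisense genes are uncertain. Alignments that were not unique went into a summary line and not to genes, which leaves near-identical genes uncertain. The 5 summary lines of each file stayed out of totals and tests. Symbols were those given with the counts. Locations came from GENCODE M21, which matched 47224 of 47729 identifiers and left 505, and promoter windows from RefSeq by symbol.

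Genes passing filterByExpr of edgeR 4.0.16 (defaults, count 10 and total 15) in R 4.3.3 were fitted over all 9 libraries with TMM factors (0.9938 to 1.012), 6 residual degrees of freedom and a common coefficient of variation of 0.0535. The contrast was tested two-sided by the robust quasi-likelihood test, with a Benjamini-Hochberg adjusted p threshold of 0.05 over all 12540 genes. Replicates were compared before averaging: chi-square per degree of freedom was 1.81 to 7.47, above sampling noise. On simulated counts for SRC3 against PAR over 12540 genes, 44, 70, 86 and 98% of 50 genes changed 1.25-, 1.5-, 2- and 4-fold were recovered and 14 of 12340 unchanged genes were called. Far fewer genes were changed in the simulation than the 4758 called in the data, so these rates may not hold for the data.

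The members and gene lists were chosen with earlier results of these data known. Named genes passed the test with groups that did not overlap: the 15 largest rises and falls of at least 5 CPM, the 12 largest of at least 100 CPM, up to 4 members of each described list in each direction of at least 1 CPM, and the nearest 2 genes on each side of the 6 largest falls. Fold bounds against 0 reads use 3 reads over the group, and with genes at their bound 0 of 55 list medians moved. Intervals are exact 95% intervals of counting error only. Alternatives were DESeq2 1.42.0, limma 3.58.1 voom, RLE factors, library sizes without factors, no low-count filter, a filter of 5 CPM in 3 libraries, the 6 libraries alone, a test against 2-fold, a replicate block, and leaving out each library. Some genes that the naming rule selects are not reported here.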

Additional observations from a re-analysis of the deposited data

Results flagged for a closer look

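For 21 of the named genes the difference of SRC3 from PAR and that of FRC1 from PAR both passed edgeR's test and had opposite signs, and the direct test of SRC3 against FRC1 passed as well. Both differences use the same PAR libraries, so the direct test is the one that bears on them.

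Lower in SRC3 and higher in FRC1 than in PAR were 11 genes. They include 4 genes near 0 in SRC3: Brinp3 (log2 difference of SRC3 from FRC1 -7.93, with FRC1 0.55 against PAR), Pcbp3 (-5.36 and 0.84), Htatip2 (-5.34 and 0.58) and Ctla2a (-4.71 and 1.13). The smooth muscle genes Tagln and Acta2 differed by -5.05 and -4.54 from FRC1, with FRC1 0.95 and 1.57 against PAR. Kif16b differed by -3.77 (FRC1 0.92) and Igfbp7 by -2.96 (FRC1 0.81). The remaining 3 differed by 1 log2 unit or less, Fkbp14 by -1.0, Vegfa by -0.84 and Col5a1 by -0.75. Against PAR, Vegfa was 1.37-fold lower and, without SRC3 replicate 3, 1.31-fold lower and no longer called (edgeR adjusted p = 0.066). Col5a1 was 1.2-fold lower, and the call was lost at 1.16-fold without SRC3 replicate 1 (adjusted p = 0.063) and at 1.17-fold without PAR replicate 3 (0.05).

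Higher in SRC3 and lower in FRC1 than in PAR were 10 genes. The largest differences of SRC3 from FRC1 were those of Cd24a (5.23, with FRC1 -1.45 against PAR), Nptx1 (3.75 and -0.98), Igfbp6 (2.94 and -0.66) and Vldlr (2.18 and -1.12). Slc16a3, the lactate exporter, differed by 1.89 (FRC1 -1.05) and Dysf by 1.4 (FRC1 -0.56). The others were mt-Cytb (0.6), Peg10 (0.57), Rbpj (0.46) and Pfkp (0.45). The rises of Rbpj and Pfkp over PAR were 1.15- and 1.14-fold, and each call was lost in 4 of the fits without 1 PAR or SRC3 library, at 1.14- to 1.15-fold with adjusted p of 0.061 to 0.08 for Rbpj and at 1.11- to 1.14-fold with adjusted p of 0.059 to 0.17 for Pfkp.

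One signal lay outside the gene counts. Alignments set aside because they were not unique came to 1.43 to 1.45 per gene count in the SRC3 libraries, above all PAR libraries (1.16 to 1.2), with FRC1 between the groups. The genes of origin of these alignments are not given in the files.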

How the results depend on the processing

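Of 4758 genes changed in SRC3 against PAR, 419 (165 higher, 254 lower) passed a test against a 2-fold change, which asks for more than a difference from 0. The other alternatives gave 4104 (DESeq2) to 4964 (no filter on low counts). The count without 1 library was 3845 to 4924 (1810 to 2338 higher, 2035 to 2586 lower), and for SRC3 against FRC1 3371 to 4281 (1606 to 2071 higher, 1765 to 2210 lower). The titles number the replicates of each group, and the correlations between same-numbered PAR and SRC3 libraries, 0.048, 0.055 and 0.118, were not all above 0.1, so the numbers were not taken to pair the samples. Each PAR and SRC3 library did correlate best with its own number between these groups, a hint from the data, not from the design. A fit with the replicate block called 4798 genes (2258 higher, 2540 lower), and 4221 (1949 and 2272) in SRC3 against FRC1. Among the 211 named genes no direction reversed under the alternatives run, and DESeq2 lost 8 calls, limma voom 3, and leaving out 1 PAR library 12 to 17 and 1 SRC3 library 7 to 13. For genes with few reads in SRC3, depth limits the size of a fall more than its call, and values under 0.209 to 0.231 CPM correspond to fewer than 3 reads in a library.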
